A study of Rattus norvegicus with 63 samples.

Results

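Thioacetamide (TAA), a sulphur-containing liver toxicant that causes liver injury in rodents after its conversion to reactive oxides in hepatocytes, was given to 3 rats at 19.2 mg/kg per day for 7 days, and their liver miRNAs were compared with those of 3 vehicle-treated rats. These 6 arrays were chosen by their labels, which assign the TAA rats to methylcellulose (MC) control set 1, and are 6 of the 63 arrays of the series. All animals were male Wistar Hanover rats of 8 to 10 weeks dosed by gastric gavage in 5 ml/kg, and the control rats received the vehicle alone. The labels give 14 days for the control set and 7 days for TAA, so length of dosing and compound cannot be told apart from these labels. The vehicle is methylcellulose in the labels, and the study's methods use both this name and carboxymethyl cellulose. The study's methods call the controls matched in time. Each dose group had 5 rats, of which the 3 profiled per treated group were, per the methods, picked among those with changes in liver histology. Of the groups used beside them, 3 rats each received acetamide (AA, 3000 mg/kg for 14 days), Wy-14643 (Wy, 60 mg/kg for 3 days) and methapyrilene (MPy, 60 mg/kg for 7 days). The labels tie these groups to the same vehicle and to control set 1. For miR-34a, rats given C.I. Direct Black (CIDB, 146 mg/kg for 7 days), dimethylnitrosamine (DMN, 4 mg/kg for 7 days) and ethionine (ETH, 200 mg/kg for 14 days) were also used. CIDB and DMN were given in corn oil with control set 3, and ETH in the vehicle of TAA with control set 5. MC control sets 5 and 6, used beside set 1, are also labelled 14 days.

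Animal miRNAs are short RNAs that guide silencing complexes to messenger RNAs, which they recognise mainly through the seed, bases 2 to 8 of the miRNA. In liver, miR-122 is the most abundant miRNA of hepatocytes. miR-34a is a transcriptional target of p53, the transcription factor that responds to DNA damage and other stress, and it lowers several proteins that drive the cell cycle or block cell death. The miR-17 to miR-92 cluster is switched on by Myc in growing cells, while the let-7, miR-15 and miR-195 families restrain growth.

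The mature sequences of the miRNAs on which the results turn are given first, 5′ to 3′, from RefSeq on the rat build GRCr8, with the seed in capitals. An array name without an arm was matched to the main arm, and 31 of 32 names looked up were found. The miR-34 family shares a seed and is shown because a single member differed between the groups. miR-34a lies at chr5:165815971-165815992 on the plus strand, and miR-34b and miR-34c lie together on chromosome 8.
miR-34a: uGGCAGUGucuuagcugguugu
miR-34b: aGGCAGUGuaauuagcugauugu
miR-34c: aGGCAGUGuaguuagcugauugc
miR-449a: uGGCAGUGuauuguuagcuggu

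The other miRNAs called with both assignments of the control arrays, as described below, are shown with near-identical relatives where the array holds these. miR-19a and miR-18a lie in the miR-17 to miR-92 cluster at chr15:98588179-98588201 and chr15:98588000-98588022. Counted from 1 at the 5′ end and written with the first-named sequence first, miR-19a and miR-19b differ by U11C, miR-7a and miR-7b by A10U, let-7f and let-7a by A12G and miR-23a and miR-23b by U19A. How far a probe for such a miRNA also reads its relative was not tested.
miR-19a: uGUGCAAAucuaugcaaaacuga
miR-19b: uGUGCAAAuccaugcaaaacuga
miR-18a: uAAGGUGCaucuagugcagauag
let-7f: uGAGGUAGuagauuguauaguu
let-7a: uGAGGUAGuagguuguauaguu
miR-7a: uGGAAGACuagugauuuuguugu
miR-7b: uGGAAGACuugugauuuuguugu
miR-186: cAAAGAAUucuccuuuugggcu
miR-210: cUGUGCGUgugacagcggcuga
miR-23a: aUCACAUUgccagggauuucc
miR-23b: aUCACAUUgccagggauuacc

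miR-195 and miR-497, which share the seed of miR-15b and miR-16, are shown because they lie side by side and each was called lower with 1 of the assignments, miR-195 with the filed arrays and miR-497 with the other. They lie at chr10:55450509-55450529 and chr10:55450172-55450193 on the plus strand.
miR-195: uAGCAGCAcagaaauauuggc
miR-497: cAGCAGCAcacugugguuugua

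Levels are given as normalised log2 brightness without subtraction of background, so dim miRNAs lie close to a floor and their differences are understated. On the 6 arrays the tested miRNAs ranged from 7.36 to 14.67, and the dimmest miRNA well above background stood at 7.40 to 7.57. All 3 TAA arrays lay on slide 4 and were scanned on day 1, with a median spot brightness of 239 to 242 and 110 to 126 miRNAs detected. The control arrays lay on slide 9, scanned on day 3 (replicate 4, median brightness 78.0, 141 miRNAs detected), and slide 8, scanned on day 2 (replicates 5 and 6, 148.5 and 152.0, 96 and 102 miRNAs detected). No slide or scan day held both groups, so TAA cannot be told apart from slide and scan day within a batch. MC control set 6, used below as the same-day control, was scanned on day 1 but lay on slide 2, with a median brightness of 203 to 213. The scanner software marked its 3 arrays for evaluation, while those of TAA and set 1 were in range. In addition, the authors' value table and the scanner readings did not match for the control rats. Over 71 miRNAs detected on all arrays, the value columns of the 3 control rats correlated with their own arrays at r = 0.234 to 0.564 and with the arrays filed under MC control set 5 at r = 0.864 to 0.885, whereas the TAA columns followed their own arrays at r = 0.870 to 0.897. In the whole series 15 value columns followed another array. The columns of MC control sets 1, 5 and 2 were crossed among these sets. Those of the treated groups DES (diethylstilbestrol) and DHEA (dehydroepiandrosterone) followed each other's arrays. Which assignment is right was not tested. By position on slide 5, an array filed under set 5 comes after those of AA and MPy, which are labelled with set 1. On slide 7 the arrays filed under set 2 come after those of ETH, labelled with set 5. On slide 8 those filed under set 1 come after those of nifedipine, labelled with set 2. What this order says of the assignment was not tested either. Results against the control set are therefore given first for the arrays as filed. Where a second value is given for the other assignment, all 15 arrays were regrouped as in the value table. This puts the arrays of set 5 in the place of set 1. Values given once use the filed arrays unless another setting is named. After the mean of all 63 arrays was taken off each miRNA, TAA rats correlated with each other at r = -0.03 to 0.54 and the rats of set 1 at 0.24 to 0.63, where the median over all pairs of rats of a group was 0.62.

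The first comparison asked which liver miRNAs differed after 7 days of TAA. In limma over all 63 arrays in 21 groups, 35 of 162 miRNAs (21.6%) passed a Benjamini-Hochberg adjusted p under 0.05, the threshold for a call, of which 16 were higher (9.88%) and 19 lower (11.7%) in TAA rats. With the other assignment of arrays, 12 of 162 (7.41%) were called, 8 higher and 4 lower, and 8 of these were among the 35, all in the same direction. The split of the 35 depends on the scaling. Scaling the background-subtracted signal by the 75th percentile of the miRNAs detected on all arrays gave 34 higher and 1 lower, while the same percentile taken over every probe gave 5 higher and 36 lower. The median difference over the 71 miRNAs detected on all arrays was -0.05 in the values used here and 0.16 and -0.39 under these scalings. Without TAA replicate 1 there were 15 calls and without TAA replicate 2 there were 23. With slide as a fixed block, which ties the groups together only through other compounds, 1 call was left, miR-34a. The rats of the groups did not overlap for 55 of 162 miRNAs (34%), with TAA above for 29 and below for 26. In RNA of whole liver, less of a miRNA per cell and fewer cells that hold it cannot be told apart.

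Apart from miR-34a the differences were small. The median size of the 35 called differences was 0.12 on the log2 scale, 15 of them were under 0.1, and 1 exceeded 1. Of the 35 called miRNAs, 16 were well above background on all 6 arrays.

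miR-34a was the miRNA with the largest difference. It stood at 9.77, 10.00 and 9.48 in the TAA rats and at 7.80, 7.70 and 7.87 in the control rats. The lowest TAA rat thus lay far above the highest control rat. The difference was 1.96 (SE 0.121, 95% interval 1.72 to 2.21, limma adjusted p = 8.14e-18, n = 3 and 3), a 3.89-fold higher level. The arrays of the other assignment read 7.73 to 7.88, and the difference from them was 1.95 (limma adjusted p = 9.23e-18). Both probes for miR-34a were higher, by 1.74 and 2.18.

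Background was left in these values, and the fold of miR-34a was larger in scaled values with background subtracted. The scanner software's background-subtracted signal, not scaled between arrays, was 816.0, 1422 and 965.3 units in the TAA rats. In the control rats it was 57.4, 22.9 and 55.0. Scaled by the 75th percentile of detected miRNAs, the difference was 4.03, or 16.4-fold. In the authors' value table, made per the methods without background correction, it was 4.12. Why that value exceeds the 1.96 found here was not tested. With slide as a block the difference was 2.23 (limma adjusted p = 5.71e-06), and against MC control set 6, scanned on the same day as the TAA arrays, it was 1.93. It was called under each of the 20 alternatives, from 1.83 to 4.12.

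The relatives of miR-34a gave no such reading. miR-34b and miR-34c, which p53 also induces, were detected in none of the 6 rats and differed by 0.00 and 0.01, and miR-449a was detected on no array of the series.

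**Figure D1:**
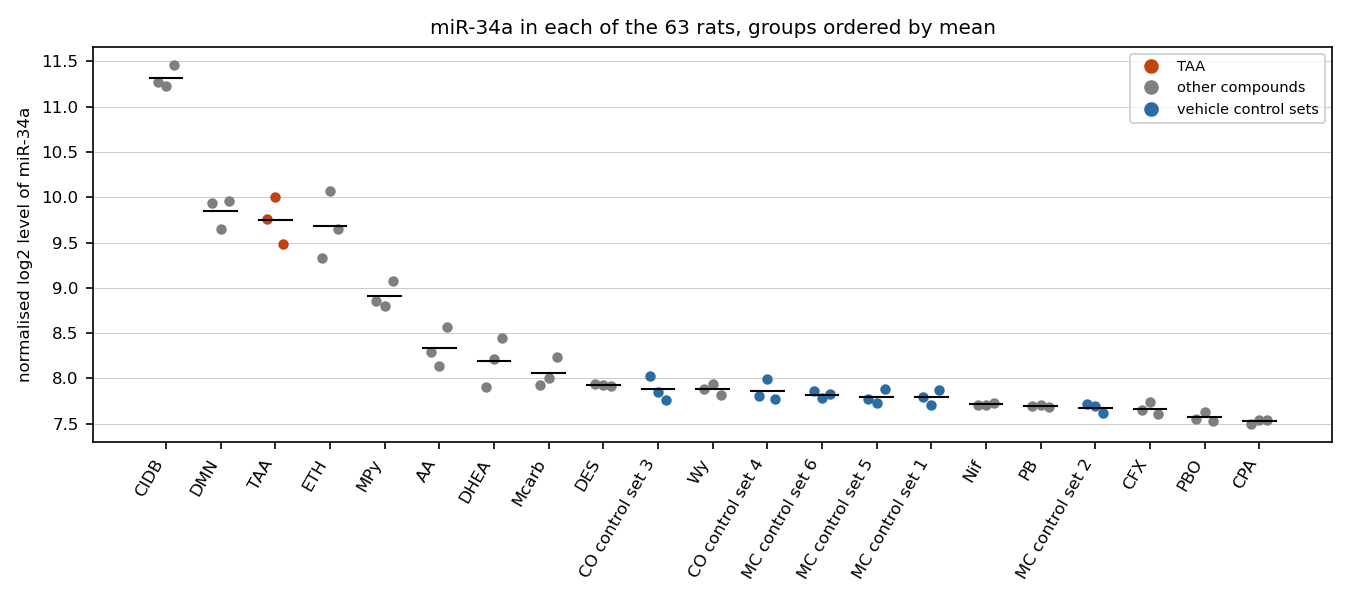
Normalised log2 level of miR-34a (vertical axis) in each of the 63 rats, with groups ordered by their mean (horizontal axis) and bars at the means. The 3 TAA rats, at 9.48 to 10.00, lay among those of DMN and ETH, and the 18 vehicle rats lay between 7.62 and 8.03.

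Across the series, TAA had the third highest mean level of miR-34a among the 21 groups. CIDB (C.I. Direct Black) had 11.23 to 11.46, DMN (dimethylnitrosamine) 9.65 to 9.96, TAA 9.48 to 10.00, ETH (ethionine) 9.33 to 10.07 and MPy 8.80 to 9.07. The rats of DMN, TAA and ETH overlapped, while CIDB lay above and MPy below all TAA rats. Relative to the control set that each label names, the differences were 3.44 for CIDB, 1.96 for DMN, 1.96 for TAA, 1.89 for ETH, 1.12 for MPy and 0.55 for AA. These levels and differences use the filed arrays. Control sets 1 (TAA, MPy and AA) and 5 (ETH) are among those crossed in the value table. The compounds differ in dose, vehicle or days, and TAA, MPy and AA share their control rats.

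Besides miR-34a, 5 miRNAs were called higher and 2 lower with both assignments. With miR-34a, these 8 were also called in the authors' value table. Its control columns follow the arrays of the other assignment, so this is no separate test. miR-19a, a member of the miR-17 to miR-92 cluster, read 8.19, 8.44 and 8.29 in TAA rats and 8.03, 7.86 and 8.01 in control rats, with no overlap. The difference was 0.34 (SE 0.0535, limma adjusted p = 6.44e-06) and 0.28 with the other assignment (adjusted p = 0.000247). The rats of MC control set 6, whose arrays were scanned on the day of TAA, read 8.23 to 8.28, above the lowest TAA rat, and against them the difference was 0.06 (adjusted p = 0.459).

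let-7f, of the growth-restraining let-7 family, read 11.09, 11.32 and 11.21 in TAA rats and 10.85, 10.92 and 10.98 in control rats. All TAA rats lay above the controls, by 0.29 in the mean (SE 0.0686, limma adjusted p = 0.00262) and 0.24 with the other assignment (adjusted p = 0.0152). When the 75th percentile was taken over every probe, the sign of let-7f turned to -0.11, while the median of the detected miRNAs moved to -0.39. let-7a, which differs from it at a single base, was 0.11 higher and was not called. Of the other compounds compared below, MPy (0.37) and Wy (0.25) also had let-7f called higher against control set 1, and AA (0.10) did not.

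miR-7a, a conserved miRNA best known from endocrine and nerve cells, read 7.78, 7.91 and 7.86 in TAA rats and 7.63, 7.66 and 7.66 in control rats. The groups did not overlap, and the difference was 0.20 (SE 0.0258, limma adjusted p = 7.47e-08) and 0.18 with the other assignment (adjusted p = 8.13e-07). Its background-subtracted signal, not scaled between arrays, was 67.4, 130.5 and 129.1 units in TAA rats and 29.4, 21.6 and 29.0 in control rats. Unscaled signals also carry differences between whole arrays. That of miR-23b, called lower, was 695.8, 956.7 and 1005 units in TAA rats and 852.6, 516.9 and 576.3 in control rats. Its probes differed by 0.31 and 0.09. TAA had the highest mean of miR-7a of the 21 groups, and miR-7b was detected on no array.

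miR-186 read 7.59, 7.71 and 7.66 in TAA rats and 7.57, 7.59 and 7.58 in control rats, so that the lowest TAA rat and the highest control rat nearly met. The difference was 0.07 (limma adjusted p = 0.0104) and 0.08 with the other assignment (adjusted p = 0.00541), and without TAA replicate 2 it was 0.04 (adjusted p = 0.15). miR-18a, from the cluster of miR-19a, was 0.04 higher with both assignments but was well above background on none of the 6 arrays. It was also called higher than control set 1 in MPy (0.04) and AA (0.03) rats, and not in Wy rats (0.01).

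miR-210, which hypoxia-inducible factors switch on when oxygen is low, read 7.53, 7.50 and 7.55 in TAA rats and 7.68, 7.67 and 7.68 in control rats. All TAA rats lay below, by 0.15 in the mean (difference -0.15, SE 0.030, limma adjusted p = 0.000223) and -0.12 with the other assignment (adjusted p = 0.00568). It was well above background on 1 TAA array and 3 control arrays. Its unscaled background-subtracted signal was 20.9, 17.6 and 32.4 units in TAA rats and 38.2, 19.3 and 30.3 in control rats, with overlap.

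miR-23b, which is made from the same transcript as miR-27b, read 9.56, 9.57 and 9.53 in TAA rats and 9.77, 9.92 and 9.64 in control rats. The difference was -0.22 (SE 0.0547, limma adjusted p = 0.0041) and -0.23 with the other assignment (adjusted p = 0.00438). Without control replicate 5 it was -0.15 (adjusted p = 0.065), and against the same-day control rats it was -0.09 (adjusted p = 0.211). miR-23a differed by -0.03 and was not called. Wy (-0.45) and AA (-0.17) rats also had miR-23b called lower against control set 1, and MPy rats (-0.06) did not.

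**Figure D2:**
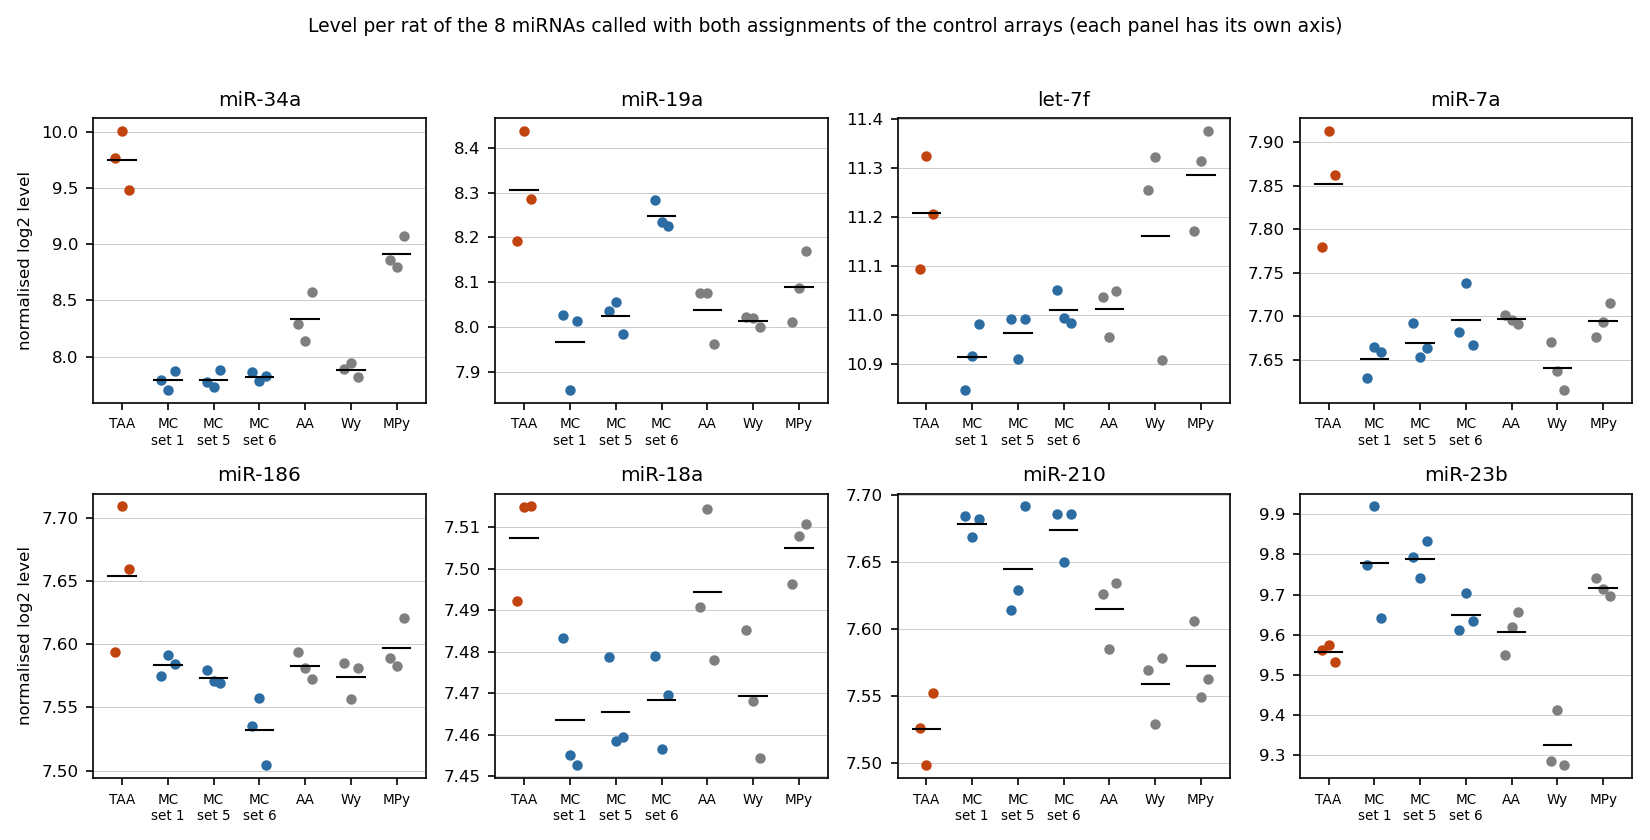
Normalised log2 level (vertical axis, its own range in each panel) of the 8 miRNAs called with both assignments, for each rat of TAA, MC control sets 1, 5 and 6, AA, Wy and MPy (horizontal axis), with bars at the means. miR-34a and miR-7a of the TAA rats lay above all other rats shown, and miR-19a of the TAA rats overlapped with MC set 6.

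The remaining 27 of the 35 called miRNAs were not called with the other assignment. All 27 kept their sign, and the median size of their differences went from 0.10 to 0.04. miR-139-3p, the partner strand of miR-139-5p, was the clearest case among those higher in TAA. It read 8.03, 7.86 and 7.66 in TAA rats and 7.46, 7.44 and 7.46 in control rats, a difference of 0.40 (limma adjusted p = 0.0149). It was well above background on none of these control arrays. With these set at the dimmest miRNA well above background, the mean level was 1.27-fold higher in TAA rats. That value takes no account of the spread between rats, and the SE of the log2 difference was 0.121. The arrays of the other assignment read 7.57 to 7.99 and overlapped with TAA, with a difference of 0.01 (adjusted p = 0.966). Its probes differed by 0.71 and 0.09. Against control set 1 as filed, miR-139-3p was also called higher in AA (0.37) and Wy (0.36) rats, and not in MPy rats (0.30).

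miR-345-3p (0.20 and 0.04), miR-878 (0.16 and 0.02) and miR-320 (0.11 and 0.02) also lost their calls with the other assignment, whose value is given second. These were also dim, and they and miR-139-3p were not called when TAA replicate 1 was left out. miR-219-5p (0.06) and miR-93 (0.05) were called higher with the filed arrays and did not pass with the others, nor without control replicate 5. miR-93 was also called higher than control set 1 in Wy (0.09), MPy (0.08) and AA (0.06) rats. Wy rats likewise had calls for miR-345-3p (0.19), miR-878 (0.15) and miR-320 (0.11). AA rats had calls for miR-345-3p (0.16) and miR-320 (0.08), and MPy rats for none of these.

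Among those lower, miR-195 differed by the same amount with both assignments. This miRNA, which targets cyclins and other cell cycle genes, read 8.37, 8.37 and 8.37 in TAA rats and 8.69, 8.61 and 8.76 in control rats. The difference was -0.31 with both assignments (SE 0.105, limma adjusted p = 0.0287 as filed and 0.0534 with the other), and -0.51 against the same-day control rats (adjusted p = 0.000334). It was called in 1 of the 6 fits that left out a rat. miR-195 was also called lower than control set 1 in MPy rats (-0.36), and not in Wy (-0.27) or AA rats (-0.16). Its neighbour miR-497, not called as filed, read 8.28, 8.28 and 8.34 against 8.51, 8.43 and 8.60, a difference of -0.22 (adjusted p = 0.0798), and of -0.33 with the other assignment (adjusted p = 0.0136).

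The largest negative difference was that of miR-193, at -0.37 (limma adjusted p = 0.0104). Its rats overlapped, at 8.97, 8.75 and 8.76 in TAA and 9.08, 9.60 and 8.91 in the control set, and it differed by -0.01 from the same-day control rats. miR-365, which is clustered with it, differed by -0.12 (adjusted p = 0.162), and by -0.20 with the other assignment (adjusted p = 0.0395).

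Further miRNAs called lower as filed, with no overlap between the groups, were miR-30d (-0.19), miR-143 (-0.19), miR-101a (-0.18), miR-409-3p (-0.12), miR-345-5p (-0.10), miR-338 (-0.07), miR-140* (-0.07) and miR-221 (-0.06). miR-143 is made mostly by smooth muscle and other stromal cells, and miR-101a targets the histone methyltransferase Ezh2. None of these 8 was called with the other assignment, and leaving out at least 1 rat ended the call for 7 of them, miR-338 being the exception. Calls made only with the other assignment were miR-497, miR-365, miR-425 (0.05) and miR-872 (0.04).

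**Figure D3:**
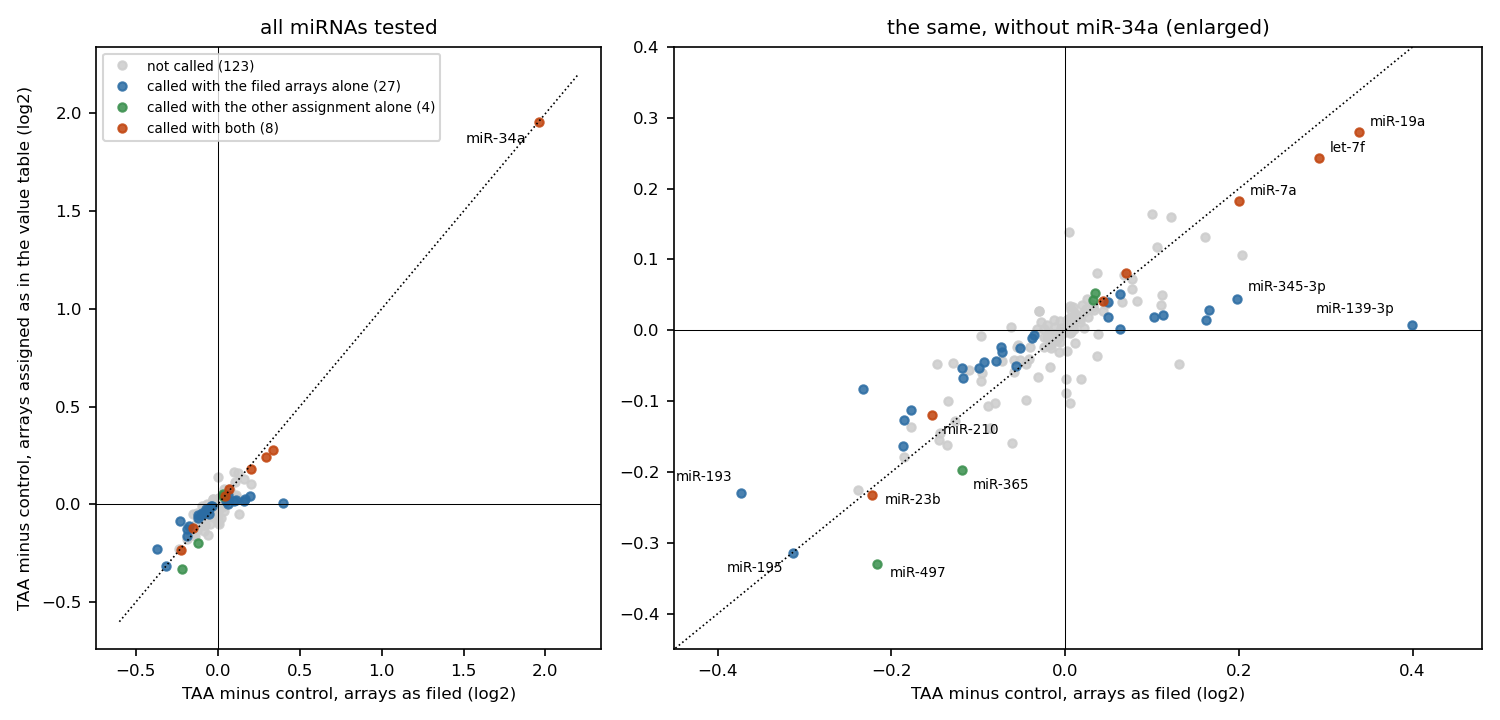
Difference of TAA from control (log2) with the filed control arrays (horizontal axis) and with those of the other assignment (vertical axis), for all 162 miRNAs on the left and enlarged without miR-34a on the right. The dotted line marks equal values. miR-34a lies on it at 1.96 and 1.95, while miR-139-3p falls from 0.40 to 0.01.

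Lists of related miRNAs were described by counts, against 16 higher and 19 lower of all 162 tested, whose median difference was -0.01. In the list for p53 and DNA damage, miR-34a was higher and the other 2 of 3 tested members, miR-34b and miR-34c, were not called. Of the 10 tested members of the miR-17 to miR-92 clusters, which promote growth, 3 were higher (miR-19a, miR-18a and miR-93) and 0 lower, with a median of 0.07 and 9 positive values. With the other assignment 2 were higher and the median was 0.05. This was not kept throughout: against the same-day control rats 5 of 10 values were positive with a median near 0.00, and under scaling by all probes 5 of 10 were positive. Scaled by the detected miRNAs, 8 of 10 were higher (median 0.47), where 34 of all 162 were. miR-19b differed by 0.20 (limma adjusted p = 0.0798).

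In the let-7 family 1 of 9 tested members, let-7f, was higher, and the median was -0.01, with 0 of 9 positive under scaling by all probes and 8 of 9 under scaling by the detected miRNAs. Of the miR-15, miR-16 and miR-195 family, 1 of 6 was lower, with a median of -0.05. Against the same-day control rats 4 of 6 were lower (median -0.29), where 19 of all 162 were. Against all MC control rats 3 of 6 were lower, where 14 of 162 were. Scaled by every probe 2 of 6 were lower (median -0.42), where 36 of 162 were. The median over the miRNAs detected on all arrays was -0.39 under this scaling. In the authors' values 2 of 5 were lower (median -0.45), where 7 of 135 were. Scaled by the detected miRNAs 0 were lower and 1 higher (median 0.07), where 34 of 162 were higher. miR-15b (0.13) and miR-16 (-0.06), the members transcribed from another locus, were not called.

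Of the miR-30 family, 3 of 9 were lower, namely miR-30d, miR-30a* and miR-30e*, and all 9 values were negative with a median of -0.07. This direction was not kept against the same-day control rats or under scaling by the detected miRNAs, where 4 of 9 were positive in each case, and no member was called with the other assignment. Scaled by every probe, 7 of 9 were lower (median -0.42), where 36 of all 162 were. Of the miR-23, miR-24 and miR-27 clusters, 1 of 6 was lower (miR-23b), all 6 were negative as filed, and 4 of 6 were positive against the same-day control rats and under scaling by the detected miRNAs. Scaled by every probe, 3 of 6 were lower. In the miR-29 family, which targets collagens, 1 of 5 was lower, the dim miR-29c*, while miR-29a and miR-29c differed by -0.14 and -0.18 and were not called.

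None of the 5 miRNAs of the miR-200 family, which maintain epithelial character, was called, with differences from -0.08 to 0.02. Of the list for injury and growth, miR-21, often raised in injured and regenerating liver, read 12.44 to 12.53 in TAA rats and 12.45 to 12.49 in control rats. Its difference was 0.02 (95% interval -0.15 to 0.19). The call in this list, 1 of 5 tested, was miR-221 (-0.06). miR-31 (0.10) and miR-212 (0.04) were not called.

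In the miR-99, miR-100 and miR-125 families 1 of 8 was lower (miR-99a, -0.23) and 1 higher (miR-125a-3p, 0.10), and neither was called with the other assignment. Of the 39 miRNAs of the imprinted Dlk1-Dio3 cluster on the array 3 were tested, and miR-409-3p and miR-487b were lower, by 0.12 and 0.05. No member was called among miR-103 and miR-107, the miR-26 family, miR-130a and its group, miR-96 or miR-181a.

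**Figure D4:**
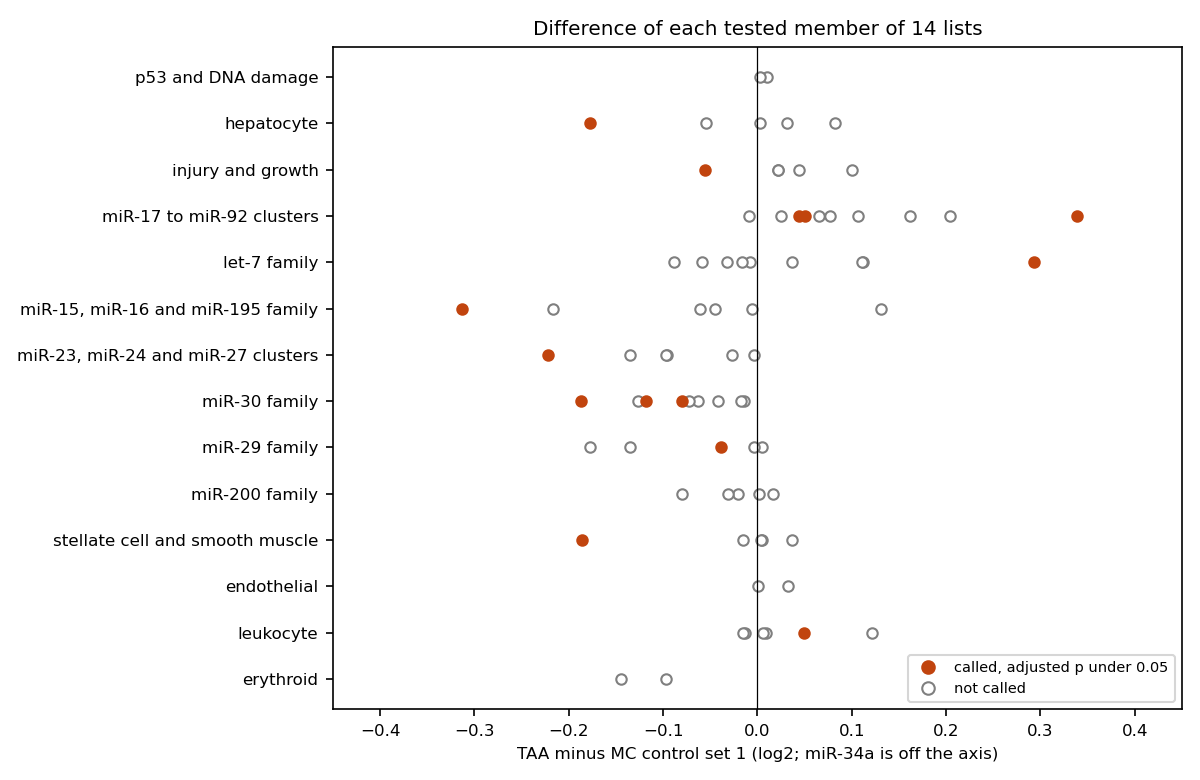
Difference of TAA from MC control set 1 (log2, horizontal axis) for each tested member of 14 lists (vertical axis), filled where the adjusted p was under 0.05. miR-34a, at 1.96, lies outside the axis. The members of the miR-30 family and of the miR-23, miR-24 and miR-27 clusters were all below 0 with the filed arrays, whereas 4 of 9 and 4 of 6 were positive against the same-day control rats and under scaling by the detected miRNAs.

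Markers of cell types were set beside these results. The RNA was that of liver by its markers, since miR-122 was the brightest miRNA on all 6 arrays. Quantile normalisation gives the brightest miRNA nearly the same value on every array, so its difference of 0.00 says nothing of its amount, and under scaling by the detected miRNAs it was -0.09. Of the 5 tested miRNAs of the hepatocyte list 1 was lower, miR-101a, and miR-192 and miR-194 differed by 0.08 and -0.06. Without miR-122, the other 2 hepatocyte markers summed to 2436 to 2649 brightness units in TAA rats and 2405 to 2632 in control rats, with overlap.

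The 4 leukocyte markers, all detected, summed to 1031 to 1136 units in TAA rats and 1022 to 1058 in control rats, with overlap, and miR-142-3p differed by 0.12 (limma adjusted p = 0.479). In the wider leukocyte list, miR-146b was called higher (0.05) although it was detected in none of the 6 rats. The 2 endothelial markers on the array summed to 752 to 870 units and 805 to 821. For stellate cells and smooth muscle, 4 of 5 markers were detected and miR-145 was not. The sums were 1155 to 1168 units in TAA rats and 1181 to 1239 in the filed control rats, with no overlap. miR-143, called lower above, is 1 of the markers summed, so the sum is not separate from that call. It read 8.56, 8.59 and 8.49 in TAA rats and 8.72, 8.81 and 8.66 in control rats. The arrays of the other assignment read 8.65, 8.59 and 8.77 for miR-143. The sum was not taken without miR-143 or for those arrays. In the wider list for these cells, miR-143 was the called member, while 3 of 5 tested values were positive with a median of 0.00. With the other assignment 0 were called. The part of these cells in the difference of miR-143 was not tested.

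The erythroid markers miR-451 and miR-144 varied most among the TAA rats. miR-451 read 10.20, 8.76 and 9.49 in TAA rats and 9.67, 9.35 and 9.87 in control rats, and miR-144 read 8.37, 7.73 and 7.97 against 8.09, 8.11 and 8.16. Neither was called (95% interval for miR-451 -0.84 to 0.55), and the sums were 646 to 1509 units and 928 to 1224. Of markers of other organs, all 6 for skeletal and heart muscle were undetected in the 6 rats, and miR-128 alone of 4 neuron markers and miR-375 alone of 3 pancreas markers were detected. All these sums include the background of the array.

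TAA rats were then compared with rats given 3 other compounds, which involves no control array. The p-values of each comparison were adjusted over all 162 miRNAs, and the comparisons share the TAA rats. Doses differ in all 3 and days in those with AA and Wy, so compound, dose and time cannot be told apart. miR-34a, miR-19a and miR-7a were higher in TAA rats and miR-221 was lower in all 3 of these comparisons. With slide as a fixed block miR-34a and miR-7a were still called in all 3, while miR-19a was not called against MPy and miR-221 was not called against AA and MPy.

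Acetamide has an oxygen atom where thioacetamide has sulphur. In TAA vs AA, 9 of 162 miRNAs were called (5.56%), 4 higher (2.47%) and 5 lower (3.09%) in TAA, and 14 without TAA replicate 1. Scaled by the detected miRNAs, 11 were higher and 3 lower. miR-34a read 8.29, 8.14 and 8.57 in AA rats, below all TAA rats, with a difference of 1.42 (SE 0.121, limma adjusted p = 8.54e-13). Against the 2 AA rats whose arrays shared the slide of TAA it was 1.53. miR-19a, miR-7a and miR-186 were higher by 0.27, 0.16 and 0.07. With slide as a fixed block, miR-186 was not called against AA (0.07, limma adjusted p = 0.0734).

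The miRNAs lower in TAA than in AA rats were miR-16 (-0.47), miR-15b (-0.39), miR-143 (-0.37), miR-130a (-0.32) and miR-221 (-0.07). miR-16 read 9.19, 9.07 and 9.19 in TAA rats and 9.69, 9.53 and 9.64 in AA rats, with no overlap (limma adjusted p = 0.000636). miR-15b, which is transcribed with it, read 8.40, 8.30 and 8.42 against 8.92, 8.64 and 8.74 (limma adjusted p = 3.13e-05). Against control set 1, TAA showed no call for miR-16, miR-15b and miR-130a.

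In TAA vs MPy, both given for 7 days but on different slides, 17 of 162 miRNAs were called (10.5%), 6 higher (3.7%) and 11 lower (6.79%). Scaled by the detected miRNAs, 9 were higher and 8 lower, and the values of the authors gave 6 and 7. There were 11 without MPy replicate 3, 10 without TAA replicate 3, and 0 when the 75th percentile over every probe set the scale, where limma left 17 miRNAs at an unadjusted p under 0.05. miR-34a read 8.86, 8.80 and 9.07 in MPy rats, and TAA was higher by 0.84 (SE 0.121, limma adjusted p = 2.36e-06). miR-99a (0.33), the hepatocyte miRNAs miR-192 (0.27) and miR-194 (0.26), miR-19a (0.22) and miR-7a (0.16) were also higher in TAA.

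miR-192 read 10.86 to 11.03 in TAA rats and 10.63 to 10.78 in MPy rats, with no overlap. Lower in TAA were miR-16 (-0.39), miR-15b (-0.29), miR-143 (-0.25), let-7b (-0.25), let-7d (-0.21), let-7i (-0.20), miR-23b (-0.16) and 4 others by less than 0.1. Slide and scan day differ between these groups, and with slide as a fixed block 1 of the 11 lower calls was left, let-7i (-0.35), and 3 of the 6 higher calls, miR-34a, miR-194 and miR-7a. With slide as a random block 3 of the 11 were left (let-7i, miR-143 and miR-15b), and with scan day as a block 2 (let-7i and let-7b). miR-143, miR-15b, miR-16 and miR-221 were lower against both AA and MPy without a block, but none of these 4 was called against MPy with slide as a fixed block. miR-143 read 8.56, 8.59 and 8.49 in TAA rats, 8.98, 8.86 and 8.89 in AA rats and 8.88, 8.76 and 8.74 in MPy rats, so the TAA rats lay below all of them.

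Wy-14643 activates PPAR-alpha, the receptor that induces fatty acid oxidation in liver. All 6 arrays of TAA and Wy lay on the same slide. In TAA vs Wy, 29 of 162 miRNAs were called (17.9%), 16 higher (9.88%) and 13 lower (8.02%), and 17 without Wy replicate 3. Scaled by the detected miRNAs, 31 were higher and 4 lower, and scaled by every probe, 5 and 2. The largest difference was again that of miR-34a, at 1.87 (SE 0.121, limma adjusted p = 2.50e-17), since the Wy rats read 7.89, 7.94 and 7.82, at the level of the controls.

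miR-107, which lies in an intron of the pantothenate kinase gene Pank1, read 8.19, 8.39 and 8.34 in TAA rats and 9.10, 9.19 and 9.13 in Wy rats. TAA was lower by 0.83 (difference -0.83, limma adjusted p = 3.69e-19) and differed from control set 1 by -0.02 (95% interval -0.12 to 0.07). miR-365 (-0.35), let-7b (-0.34), miR-193, miR-29a (-0.34 each), miR-29c (-0.33), miR-30d (-0.30), miR-378 (-0.27) and miR-194 (-0.22) were lower in TAA than in Wy rats. miR-23b (0.23), miR-23a (0.20), miR-24 (0.19) and miR-27b (0.18), of the same clusters, and miR-19b (0.26) were higher.

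**Figure D5:**
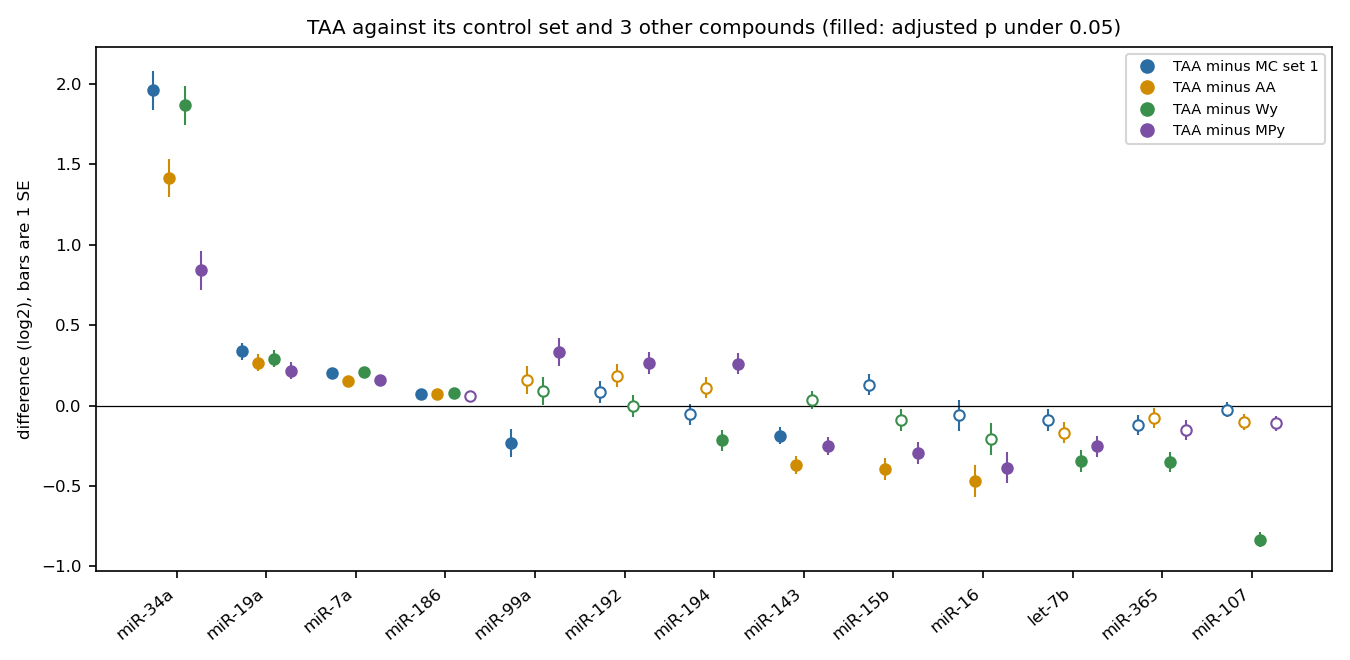
Difference (log2, vertical axis, with bars of 1 SE) of the TAA rats from MC control set 1, AA, Wy and MPy for 13 miRNAs (horizontal axis), filled where the adjusted p was under 0.05. miR-34a lies above 0 in all 4 comparisons, from 0.84 to 1.96, and miR-107 stands at -0.83 against Wy.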

How the data were processed

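Single-colour Agilent rat miRNA arrays, 1 per rat, carry 938 probes for 350 miRNAs. The authors deposited the scanner intensities of each spot (Agilent Feature Extraction 10.7.3.1) and a table of normalized log2 values of 135 miRNAs, made per the methods by RMA without background correction, with 0 columns unassigned. Here outlier-flagged spots (2.68% on the 6 arrays) were dropped, mean intensities were quantile normalized and averaged per probe, and the log2 probe values of a miRNA were joined by median polish. The 162 miRNAs detected on at least 1 array were tested with limma 3.58.1 (R 4.3.3) and the Benjamini-Hochberg adjustment. A miRNA counted as well above background where the software so marked the majority of spots of any probe for it. A bound on a fold sets the dim group at the dimmest miRNA well above background on each array. The number of arrays limits precision.

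Of the called miRNAs whose groups did not overlap and that were detected in at least 3 of the 6 rats, the text names up to 12 with the largest difference in each direction, which gave 12 higher and 11 lower, and members of the lists. Others were named after their values were seen. The miRNAs and lists were chosen with earlier results of these data known. The steps were tested on simulated data. Alternatives were other scalings and background corrections, other filters, the value table, slide and scan day as blocks, other control rats, the other array assignment and leaving out rats.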

Additional observations from a re-analysis of the deposited data

How the results depend on the processing

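TAA vs MC control set 1 gave 35 calls, 14 of 135 in the authors' value table, 1 with slide as a fixed block and 16 as a random block, 4 with only the groups compared, 12 with the assignment of the value table, 6 with that and slide as a block, and 15 to 31 when a rat was left out. TAA vs AA gave 9 calls, 14 with the 75th percentile of detected miRNAs, 5 with only the groups compared and 9 to 14 without a rat. TAA vs Wy gave 29, 7 with the 75th percentile of all probes, 9 with only the groups compared and 17 to 34 without a rat. TAA vs MPy gave 17, 0 with the 75th percentile of all probes (17 at an unadjusted p under 0.05 in limma), 8 (7 higher, 1 lower) and 6 (3 and 3) with slide as a fixed and a random block, 10 (6 and 4) with scan day as a block and 10 to 20 without a rat. Apart from the replicate block, all other alternatives stayed within 1.5 times of these counts. The cause of the changes was not tested.

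Signs turned for let-7f with the 75th percentile of all probes (-0.11) and for miR-101a with that of detected miRNAs (0.021). With slide as a fixed block they turned for miR-219-5p (-0.016), miR-93 (-0.059), miR-30d (0.034), miR-409-3p (0.072) and miR-140* (0.00089). With the assignment of the value table and slide as a block they turned for miR-93 (-0.043), miR-30d (0.042), miR-101a (0.021) and miR-140* (0.037). Against the same-day control rats they turned for miR-93 (-0.0085) and miR-409-3p (0.083). None of these turned values was called. The other miRNAs named by the rule on size kept their sign or stood at 0, the value of a miRNA at the floor, under the alternatives run.

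TAA and its control set share no replicate numbers. TAA shares numbers with AA, Wy and MPy, and the replicate block gave 1, 5 and 9 calls for these. Deviations of same-numbered rats from their group means correlated at r = -0.70 to -0.17 for AA, -0.10 to 0.39 for Wy and -0.19 to 0.82 for MPy, so the numbers do not pair the rats. Low signal over background limits the dim miRNAs.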
